A study of Bos taurus with 6 samples.

Results

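Myostatin and the TGF-beta (transforming growth factor beta) ligands are secreted proteins that restrain or redirect the growth of skeletal muscle, and 10 genes of this control system were followed in the longissimus dorsi muscle of cattle. The set was given as a list of gene names that uses no expression value, although it was drawn up with earlier results of these data known, and all 10 were found among the 18010 genes listed in the deposited files. It holds the ligands MSTN, TGFB1, TGFB2 and TGFB3, the ligand-binding proteins FST and FSTL1, the receptors ACVR2A and ACVR2B, and the signal transducers SMAD3 and SMAD7.

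RNA-Seq was performed on 3 Shandong black cattle (B1, B2 and B3) and 3 Luxi cattle (L1, L2 and L3), 18 months old, with 1 library per animal. Shandong black cattle combine Japanese black, Luxi and Bohai black cattle and go back to cloned animals, and Luxi cattle are a local yellow breed. The study compared the breeds in search of genes linked to fat deposition in beef. The animals of each breed came from a different company, so that breed and source cannot be told apart.

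Myostatin is made by muscle fibres as a precursor and is known as a brake on muscle mass, since cattle that lack it are double-muscled. The mature ligand binds an activin type II receptor on the cell surface, the receptor complex phosphorylates SMAD2 and SMAD3, and these enter the nucleus with SMAD4. The TGF-beta ligands use their own receptors but the same Smads, follistatin (FST) captures myostatin and activins outside the cell, and SMAD7 blocks the receptors from inside.

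Levels are given as FPKM, the coverage of a transcript per base relative to the aligned bases of the library, summed over the transcripts of a gene, so that levels can be compared between genes of different length. The libraries rested on 14.1 to 14.6 gigabases of aligned sequence in Shandong black cattle and 17.5 to 17.99 gigabases in Luxi cattle. All 8 muscle fibre markers were found, none at 0, although MYH1, a fast myosin, was under 1 in B1, B2 and L1. Their summed FPKM, most of it from the actin gene ACTA1, was lowest in L1, at 15732, against 38110 to 68371 in the other 5 animals. The labels do not give the sex of the animals. XIST, the RNA of the inactive X chromosome in females, had an FPKM of 4.83 to 14.04 in Shandong black cattle. In Luxi cattle it was at 0 in L1 and L2 and at 0.207 in L3. A gene with no transcript listed in an animal counts as 0 here. EIF2S3, an X-linked gene, ranged from 24.2 to 39.3 in Shandong black cattle and from 4.41 to 7.86 in Luxi cattle. Both genes separated the breeds in all 6 animals, and the part of sex in the differences below was not tested.

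Differences between the breeds were tested with limma on log2(FPKM + 1), Luxi minus Shandong black, for the 9781 genes whose mean FPKM reached 1 in either breed. On this scale the change of a gene with a low FPKM is understated. To be called, a gene needed a Benjamini-Hochberg adjusted p under 0.05 together with a log2 fold change no smaller in size than 1, and 2.57% of the genes tested were called (1.54% higher and 1.02% lower in Luxi cattle). Of the 10 genes, 9 were tested and none was called, while MSTN, TGFB2 and ACVR2B had an unadjusted limma p under 0.05 (3 of 9, against 2136 of all 9781 genes). The breeds did not overlap for TGFB2 and ACVR2B, both higher in Luxi cattle (20.0% of all genes tested did not overlap in that direction, and 29.1% in either). The log2 fold change was positive for 8 of the 9 genes, against 62.5% of all genes tested, and its median was 0.29 against 0.13 for all genes. Since the median of all genes fell to 0.02 with size factors, a shift of 0.12, a log2 fold change of about that size carries no direction here. MSTN and ACVR2B passed the filter through their level in Luxi cattle alone, so that these counts are a description and not support for a shift of the set. In bulk muscle, fewer cells of a type and less RNA per cell cannot be told apart.

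**Figure D1:**
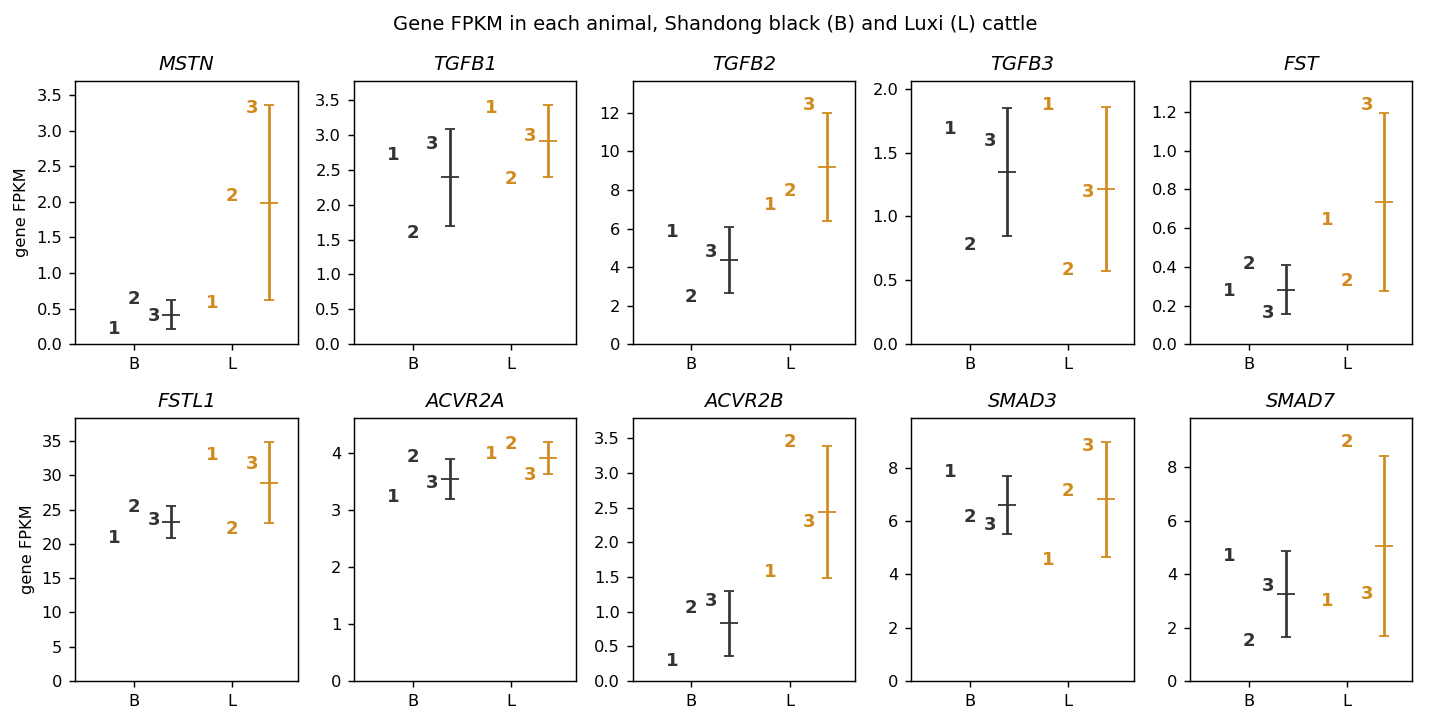
Gene FPKM (vertical axis, linear and from 0, a scale of its own for each gene) in the 3 Shandong black cattle (B, dark) and the 3 Luxi cattle (L, orange), where each digit is the replicate number of an animal and the bars are the mean ± SD of a breed. For TGFB2 and ACVR2B all Luxi cattle lie above all Shandong black cattle, whereas for MSTN the animal L1, at 0.573, lies below B2, at 0.629.

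MSTN, which encodes myostatin, lies at chr2:6278864-6285491 on the plus strand of ARS-UCD1.2 and has 1 reference transcript with 3 exons. Its FPKM was 0.219 in B1, 0.629 in B2 and 0.397 in B3, and 0.573 in L1, 2.08 in L2 and 3.31 in L3. L2 and L3 were thus above every Shandong black animal, whereas L1 lay within their range, and the breeds overlapped. The Luxi mean of 1.99 ± 1.37 (SD, n = 3) was 4.79 times the Shandong black mean of 0.415 ± 0.205 (SD, n = 3). Its log2 fold change of 0.97 (standard error, SE, 0.36, 95% interval 0.13 to 1.82) did not pass the threshold (limma, Benjamini-Hochberg adjusted p = 0.179). Without L1 it was 1.38 and passed (limma adjusted p = 0.0250, Benjamini-Hochberg), but in that fit the calls among all genes rose from 251 to 593. Over all 15 alternatives the adjusted p of limma for MSTN ranged from 0.0250 to 0.397. The log2 fold change was 0.65 without L3 and 1.81 with a pseudocount of 0.1. The coverage behind these values ran from 3.09 reads per base in B1 to 58.0 in L3.

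L2 and L3 were also the highest animals along the whole transcript. Exon 1 (chr2:6278864-6279369, 506 bases) had an FPKM of 0.399, 0.847 and 0.401 in B1 to B3 and of 0.458, 3.41 and 4.96 in L1 to L3. Exon 2 (chr2:6281198-6281571, 374 bases) had 0.396, 1.51 and 1.21 in B1 to B3 and 1.22, 3.85 and 5.86 in L1 to L3. Exon 3 (chr2:6283604-6285491, 1888 bases), which ends with the 3' untranslated region, had 0.136, 0.387 and 0.236 in B1 to B3 and 0.476, 1.37 and 2.35 in L1 to L3. In each exon L2 and L3 stood above all Shandong black cattle, and the ratio of the breed means was 5.36, 3.52 and 5.53 from exon 1 to exon 3. L1 lay among the Shandong black cattle in exons 1 and 2 and just above them in exon 3. A higher mean in Luxi cattle was thus seen in all 3 exons.

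**Figure D2:**
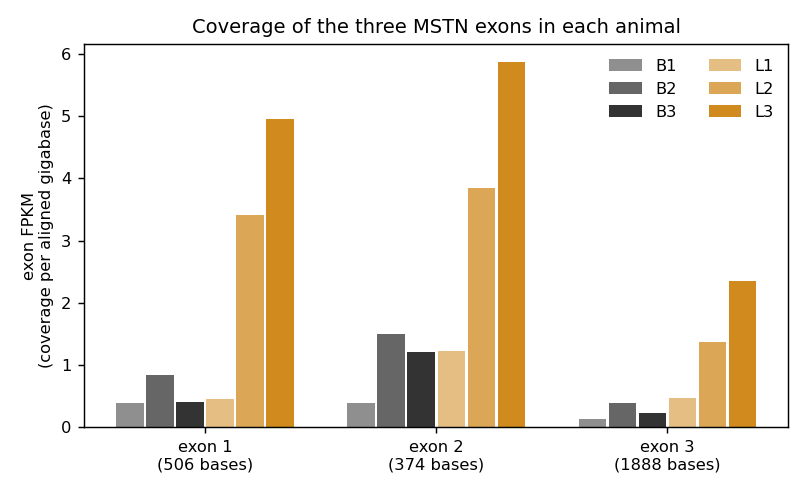
FPKM of each of the 3 MSTN exons (vertical axis, coverage per aligned gigabase, from 0) in the 6 animals, with Shandong black cattle (B) in grey and Luxi cattle (L) in orange. The bars of L2 and L3 are the tallest in all 3 exons, while L1 stays near the Shandong black cattle, at 0.458 in exon 1, 1.22 in exon 2 and 0.476 in exon 3.

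The 3 tested genes whose profile over the 6 animals was most like that of MSTN were FGF10, CHRND and BLOC1S1. Likeness was the root-mean-square distance between log2(FPKM + 1) profiles, each centred on its own mean, and it was 0.077 for FGF10, 0.10 for CHRND and 0.11 for BLOC1S1, against a median of 0.66 over all genes tested. FGF10, a fibroblast growth factor, had an FPKM of 0.0187, 0.346 and 0.212 in B1 to B3 and of 0.428, 1.52 and 3.09 in L1 to L3. CHRND, the delta subunit of the muscle acetylcholine receptor, had 0.903, 2.15 and 1.27 in B1 to B3 and 1.89, 4.49 and 6.68 in L1 to L3. In both genes L2 and L3 were the highest animals, while L1 lay within the Shandong black range for CHRND, as for MSTN, and just above it for FGF10. BLOC1S1, a subunit of a lysosome-related complex, ranged from 20.3 to 25.9 in Shandong black cattle and from 28.4 in L1 to 77.8 in L3. These genes were picked for their likeness, and the distance over 6 animals is a description.

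TGFB2 was the most abundant of the 3 TGF-beta ligands in all 6 animals. It lies at chr16:21807924-21903007 on the plus strand, and its FPKM was 5.83 in B1, 2.46 in B2 and 4.80 in B3, and 7.22 in L1, 7.92 in L2 and 12.4 in L3. All Luxi cattle were above all Shandong black cattle, with a gap from 5.83 to 7.22. The mean was 4.37 ± 1.73 (SD, n = 3) against 9.18 ± 2.81 (SD, n = 3), a ratio of 2.1. Its log2 fold change of 0.95 (SE 0.31, 95% interval 0.22 to 1.68) did not pass the threshold (limma, Benjamini-Hochberg adjusted p = 0.139), nor did it in any of the 16 alternatives.

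TGFB1, the ligand best known for driving scar tissue and immune restraint, lies at chr18:50493032-50508619 on the minus strand. Its FPKM was 2.71 in B1, 1.60 in B2 and 2.87 in B3, and 3.39 in L1, 2.37 in L2 and 2.99 in L3. The breeds overlapped, with a mean of 2.39 ± 0.692 (SD, n = 3) against 2.92 ± 0.513 (SD, n = 3). The difference on the log2 scale was 0.22 (SE 0.21, 95% interval -0.27 to 0.71, limma Benjamini-Hochberg adjusted p = 0.571), but 0.04 without B2, 0.13 without L1 and 0.11 with size factors. TGFB3, at chr10:87237854-87270902 on the minus strand, had an FPKM of 1.69 in B1, 0.775 in B2 and 1.59 in B3, and of 1.87 in L1, 0.583 in L2 and 1.19 in L3. Each breed held 1 animal, B2 and L2, that was well below the other two, and the ranges overlapped. The mean of TGFB3 was 1.35 ± 0.50 against 1.21 ± 0.645 (SD, n = 3 each), with a log2 fold change of -0.10 (SE 0.27, 95% interval -0.74 to 0.54, limma Benjamini-Hochberg adjusted p = 0.853), whose sign turned when B1 or L2 was left out.

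Taking the 3 ligands as a whole within each animal, TGFB2 made up 57.0% of their summed FPKM in B1, 50.9% in B2 and 51.9% in B3, and 57.9% in L1, 72.8% in L2 and 74.8% in L3. Its mean share was 68.5 ± 9.28% (SD, n = 3) in Luxi cattle against 53.3 ± 3.32% (SD, n = 3) in the other breed, and the lowest Luxi share, in L1, was just above the highest Shandong black one, in B1. TGFB3 made up 16.0 to 17.1% in Shandong black cattle, 15.0% in L1, 5.36% in L2 and 7.17% in L3, all Luxi shares being lower. TGFB1 accounted for 26.5 to 33.1% in Shandong black cattle and 18.01 to 27.2% in Luxi cattle, where the breeds overlapped. As for MSTN, L1 was the Luxi animal nearest to the Shandong black cattle.

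**Figure D3:**
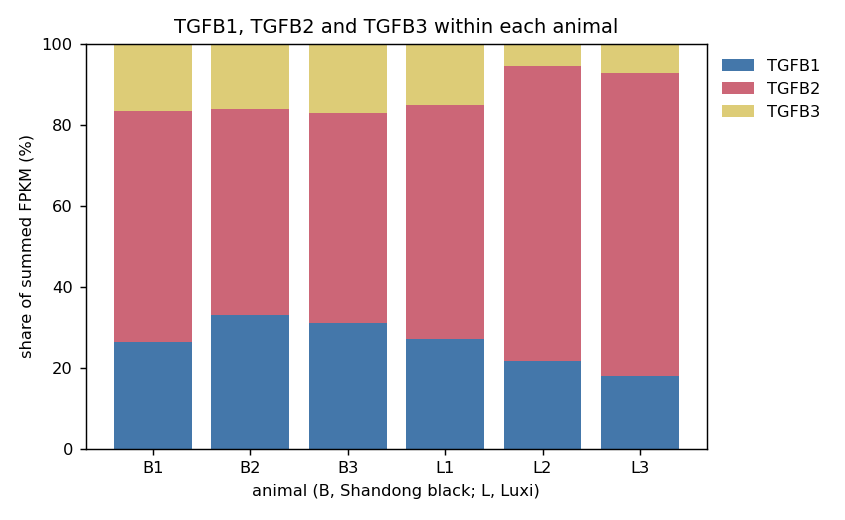
Share of the summed FPKM of TGFB1, TGFB2 and TGFB3 (vertical axis, percent) that each gene makes up in the 6 animals (horizontal axis, B for Shandong black and L for Luxi). TGFB2 takes 50.9 to 57.9% in B1 to B3 and L1 and 72.8 to 74.8% in L2 and L3.

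Follistatin was the least abundant of the 10 genes in both breeds. FST lies at chr20:25581178-25586895 on the minus strand, and its FPKM was 0.273 in B1, 0.414 in B2 and 0.160 in B3, and 0.642 in L1, 0.329 in L2 and 1.24 in L3. The highest values were in L3 and L1, while L2 lay among the Shandong black cattle, so the breeds overlapped. The means of 0.283 ± 0.127 and 0.736 ± 0.461 (SD, n = 3 each) were under 1 in both breeds, and FST was not tested. With no filter its log2 fold change was 0.41 (limma, Benjamini-Hochberg adjusted p = 0.415).

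FSTL1, a secreted glycoprotein named for its follistatin-like domain and made by fibroblasts and muscle, was the most abundant of the set by a wide margin. It lies at chr1:65138522-65198381 on the minus strand, and its FPKM was 20.8 in B1, 25.4 in B2 and 23.5 in B3, and 33.1 in L1, 22.1 in L2 and 31.7 in L3. L1 and L3 were above all Shandong black cattle but L2 was not. The mean was 23.2 ± 2.30 (SD, n = 3) against 28.96 ± 5.97 (SD, n = 3), and the log2 fold change was 0.29 (SE 0.24, 95% interval -0.26 to 0.84, limma Benjamini-Hochberg adjusted p = 0.50), which was 0.14 with size factors, 0.19 without L1 and 0.47 without L2.

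The ratio of MSTN to FST sets the ligand beside its inhibitor within an animal. It was 0.802 in B1, 1.52 in B2 and 2.48 in B3, and 0.894 in L1, 6.33 in L2 and 2.68 in L3. L2 and L3 had the highest ratios, but L1 was at the low end of the Shandong black range. On the log2 scale with a pseudocount of 1 the ratio was higher in Luxi cattle by 0.56. The breeds overlapped (exact two-sided permutation test, n = 3 against 3, p = 0.3, smallest possible p = 0.1). The difference was 0.94 without L1 and 0.31 without L2.

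ACVR2A and ACVR2B are the type II receptors that bind myostatin and activins. ACVR2A, at chr2:48279645-48374634 on the minus strand, had an FPKM of 3.24 in B1, 3.93 in B2 and 3.47 in B3, and of 3.99 in L1, 4.16 in L2 and 3.61 in L3. It varied little between animals, with means of 3.55 ± 0.353 and 3.92 ± 0.283 (SD, n = 3 each), and the breeds overlapped. On the log2 scale the difference was 0.11 (SE 0.15, 95% interval -0.25 to 0.48, limma Benjamini-Hochberg adjusted p = 0.697), and it was -0.01 with size factors and -0.03 with quantile normalization.

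ACVR2B, at chr22:11825975-11865183 on the plus strand, had an FPKM of 0.291 in B1, 1.05 in B2 and 1.15 in B3, and of 1.57 in L1, 3.45 in L2 and 2.29 in L3. All Luxi cattle lay above all Shandong black cattle. The mean was 0.830 ± 0.470 (SD, n = 3) against 2.44 ± 0.949 (SD, n = 3), a ratio of 2.94. Its log2 fold change of 0.91 (SE 0.28, 95% interval 0.25 to 1.57) did not pass the threshold (limma, Benjamini-Hochberg adjusted p = 0.126), nor in any of the 14 alternatives that could test it, and it was 1.55 with a pseudocount of 0.1. Over the animals, 39.2% of the FPKM of ACVR2B came from reference transcripts and the rest from transcripts assembled on its exons, and in L3 no reference transcript was found. On the 1022 exon bases shared by its 3 reference transcripts the values were 0.472, 1.5 and 0.978 in B1 to B3 and 2.54, 4.83 and 2.13 in L1 to L3. By this measure, too, the breeds did not overlap, and the log2 fold change was 1.05 (limma Benjamini-Hochberg adjusted p = 0.104).

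The ratio of ACVR2A to ACVR2B did not overlap between the breeds. ACVR2A was 11.1 times as abundant as ACVR2B in B1, 3.73 times in B2 and 3.03 times in B3, and 2.54 times in L1, 1.21 times in L2 and 1.57 times in L3. On the log2 scale with a pseudocount of 1 the ratio was lower in Luxi cattle, with a difference of -0.79 (exact two-sided permutation test, n = 3 against 3, p = 0.1, the smallest that 3 against 3 animals allow). With reference transcripts alone this difference was -0.01, whereas over the shared exon bases, which count assembled transcripts too, it was -0.93 (exact permutation test, n = 3 against 3, p = 0.1), and with a pseudocount of 0.1 it was -1.41.

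SMAD3 carries the signal of myostatin, activin and the TGF-beta ligands to the nucleus. It lies at chr10:13895783-14021417 on the plus strand, and its FPKM was 7.84 in B1, 6.14 in B2 and 5.84 in B3, and 4.53 in L1, 7.13 in L2 and 8.82 in L3. The lowest and the highest value were both in Luxi cattle. The means were 6.60 ± 1.08 and 6.83 ± 2.16 (SD, n = 3 each), and the log2 fold change was 0.01 (SE 0.25, 95% interval -0.58 to 0.60, limma Benjamini-Hochberg adjusted p = 0.985), of which the sign changed with the scaling.

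SMAD7, the inhibitory Smad that is itself switched on by the pathway, lies at chr24:48598698-48627436 on the minus strand. Its FPKM was 4.67 in B1, 1.51 in B2 and 3.57 in B3, and 2.98 in L1, 8.96 in L2 and 3.25 in L3. L2 alone was above the Shandong black range, and the means were 3.25 ± 1.61 and 5.06 ± 3.38 (SD, n = 3 each). SMAD7 had a log2 fold change of 0.46 (SE 0.43, 95% interval -0.56 to 1.47, limma Benjamini-Hochberg adjusted p = 0.568), which was 0.03 without L2. The ratio of SMAD7 to SMAD3 was 0.597, 0.246 and 0.612 in B1 to B3 and 0.657, 1.26 and 0.368 in L1 to L3, so that L2 was the only animal with more SMAD7 than SMAD3. Its log2 difference between the breeds was 0.44, with overlap of the breeds (exact two-sided permutation test, n = 3 against 3, p = 0.4). That difference was 0.15 without B2, 0.066 without L2, 0.82 without L3 and 0.14 with reference transcripts alone.

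By mean level, the order in Shandong black cattle was FSTL1, SMAD3, TGFB2, ACVR2A, SMAD7, TGFB1, TGFB3, ACVR2B, MSTN and FST. In Luxi cattle it was FSTL1, TGFB2, SMAD3, SMAD7, ACVR2A, TGFB1, ACVR2B, MSTN, TGFB3 and FST. FSTL1 stood clear of the next gene in both breeds, and otherwise neighbours differed beyond their ranges only for SMAD3 above TGFB2 in Shandong black cattle and ACVR2A above TGFB1 in Luxi cattle. Among all genes listed, FSTL1 was at the 95th percentile of mean FPKM, TGFB2 at 83.0, SMAD3 at 82.9, MSTN at 52.0 and FST at 38.8.

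Most of the 10 genes were read from 1 dominant transcript. Of the TGFB1 FPKM, a transcript of 1683 bases held 94.9 to 99.9% in every animal, and of the FSTL1 FPKM, one of 3587 bases held 94.7 to 99.9%. For SMAD7 the main transcript, of 2778 bases, held 79.5 to 100% of the FPKM. TGFB2 was split between a transcript of 7 exons and 2368 bases, with 49.8 to 80.5%, and one of 8 exons and 4981 bases, with 19.3 to 42.5%. The former had a mean share of 67.4 ± 15.9% among Shandong black cattle and of 59.6 ± 2.62% among Luxi cattle (SD, n = 3 each), with overlapping ranges. The difference in TGFB2 was seen in both transcripts, whose mean FPKM was 2.86 against 5.43 for the former and 1.38 against 3.08 for the latter. For SMAD3, transcripts assembled on its exons added 3.18 in B1 and 1.28 in B2 and nothing in the other 4 animals, and the main reference transcript alone was at 4.64, 4.71 and 5.63 in B1 to B3 and 3.97, 6.31 and 8.61 in L1 to L3.

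To see the 10 genes beside the rest of the pathway, a list of 66 other ligands, receptors, Smads, binding proteins and target genes was used, of which 59 were found and 48 tested. GDF11 and ID2 were called, both lower in Luxi cattle (4.17% of those tested, against 2.57% of all genes, or 1.02% of all genes in that direction), and 18 of 48 had an unadjusted limma p under 0.05, against 2136 of all 9781 genes. The median log2 fold change of the list was 0.17 against 0.13 for all genes, with 28 positive and 20 negative values, where 62.5% of all genes were positive. The breeds did not overlap for 11 genes that were higher and 7 that were lower in Luxi cattle (20.0% and 9.13% of all genes tested). Of these, INHBB, BMP2, INHA and SMAD9 passed the filter only through the breed in which they were higher. The counts of the list are thus a description and not support for a shift of the pathway.

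Among the ligands, 1 of the 7 tested genes was called. GDF11, the closest relative of myostatin, had an FPKM of 17.9 in B1, 7.85 in B2 and 13.2 in B3, and of 2.20 in L1, 0.979 in L2 and 2.99 in L3. It was thus 6.32 times as abundant in Shandong black cattle by the means, 13.0 ± 5.05 against 2.06 ± 1.01 (SD, n = 3 each), with no overlap, and fell in Luxi cattle with a log2 fold change of -2.19 (SE 0.36, limma Benjamini-Hochberg adjusted p = 0.0306).

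Of the receptors and co-receptors, none of the 10 tested was called. ACVRL1, a type I receptor of endothelial cells, had an FPKM of 4.31, 2.97 and 3.53 in B1 to B3 and of 7.34, 7.65 and 9.39 in L1 to L3, without overlap. Its log2 fold change of 0.99 (SE 0.19, limma Benjamini-Hochberg adjusted p = 0.0436) passed the p threshold but fell just short of the fold threshold. Endothelial markers (5 of 6 found, none at 0 in all animals, VWF not found) summed to FPKM 19.5 to 20.8 in Shandong black cattle. The sum was 66.0, 24.8 and 35.5 in L1 to L3, also higher in all Luxi cattle but in another order than ACVRL1. Of these markers PECAM1 and CDH5 were higher in all Luxi cattle, KDR, TEK and CLDN5 overlapped and none was called, and their part in ACVRL1 was not tested. ENG, an endothelial co-receptor and the most abundant of the group, had 14.8 to 24.7 against 19.9 to 25.3 and a log2 fold change of 0.17 (limma Benjamini-Hochberg adjusted p = 0.715).

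Of the Smads and their partners, none of the 11 tested was called. SMAD4, the shared partner of the signalling Smads and the most abundant of the group, had an FPKM of 7.64, 6.76 and 7.15 in B1 to B3 and of 9.94, 12.4 and 10.5 in L1 to L3. The breeds did not overlap, and the log2 fold change was 0.54 (SE 0.18, limma Benjamini-Hochberg adjusted p = 0.135). SMAD9, a Smad of the bone morphogenetic protein branch, had 2.55, 0.414 and 2.29 in B1 to B3. In Luxi cattle it was at 0 in L1, 0.129 in L2 and 0.211 in L3. SMAD9 had a log2 fold change of -1.20 (SE 0.36, limma Benjamini-Hochberg adjusted p = 0.118). It passed the filter through its level in Shandong black cattle alone, and it was called when B2, its lowest animal of that breed, was left out.

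Of the proteins for binding, latency and activation, none of the 12 tested was called. TCAP, a Z-disc protein that also binds myostatin, varied most. It had an FPKM of 361 in B1, 0.0993 in B2 and 42.0 in B3, and of 221 in L1, 106 in L2 and 355 in L3. The low value of B2 set its log2 fold change of 2.98 (SE 1.85, limma Benjamini-Hochberg adjusted p = 0.383), which was 0.71 without that animal. WFIKKN2, a secreted protein that binds myostatin and GDF11, was named after its values were seen. It had 2.42, 1.70 and 2.51 in B1 to B3 and 2.97, 10.6 and 12.6 in L1 to L3, with L1 close to the Shandong black cattle and L2 and L3 far above them. WFIKKN2 had a log2 fold change of 1.42 (SE 0.45, limma Benjamini-Hochberg adjusted p = 0.129). It was called without L1, a fit in which the calls among all genes rose from 251 to 593.

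Among the target genes, 1 of the 8 tested was called. ID2, an inhibitor of DNA-binding transcription factors that is induced by bone morphogenetic proteins, had an FPKM of 16.2 in B1, 12.05 in B2 and 17.0 in B3, and of 4.41 in L1, 2.88 in L2 and 1.86 in L3. The breeds were far apart, with means of 15.1 ± 2.67 and 3.05 ± 1.28 (SD, n = 3 each), and ID2 fell in Luxi cattle with a log2 fold change of -2.02 (SE 0.27, limma Benjamini-Hochberg adjusted p = 0.0206). CDKN1A, a cell cycle inhibitor and the most abundant of the group, had 6.32 to 16.0 against 8.82 to 19.5, with a log2 fold change of 0.21 (limma Benjamini-Hochberg adjusted p = 0.784). The calls of GDF11 and ID2 were lost in some fits with 1 animal left out. The limma adjusted p of both was over 0.05 without B1 (0.117 and 0.0994), without B3 (0.139 and 0.117) and without L2 (0.0775 and 0.0689), and that of GDF11 also without L3 (0.0633). Their log2 fold changes stayed between -2.48 and -1.90 for GDF11 and between -2.26 and -1.80 for ID2. In the same fits the calls among all genes fell from 251 to 10 without B1, 3 without B3, 44 without L2 and 86 without L3.

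**Figure D4:**
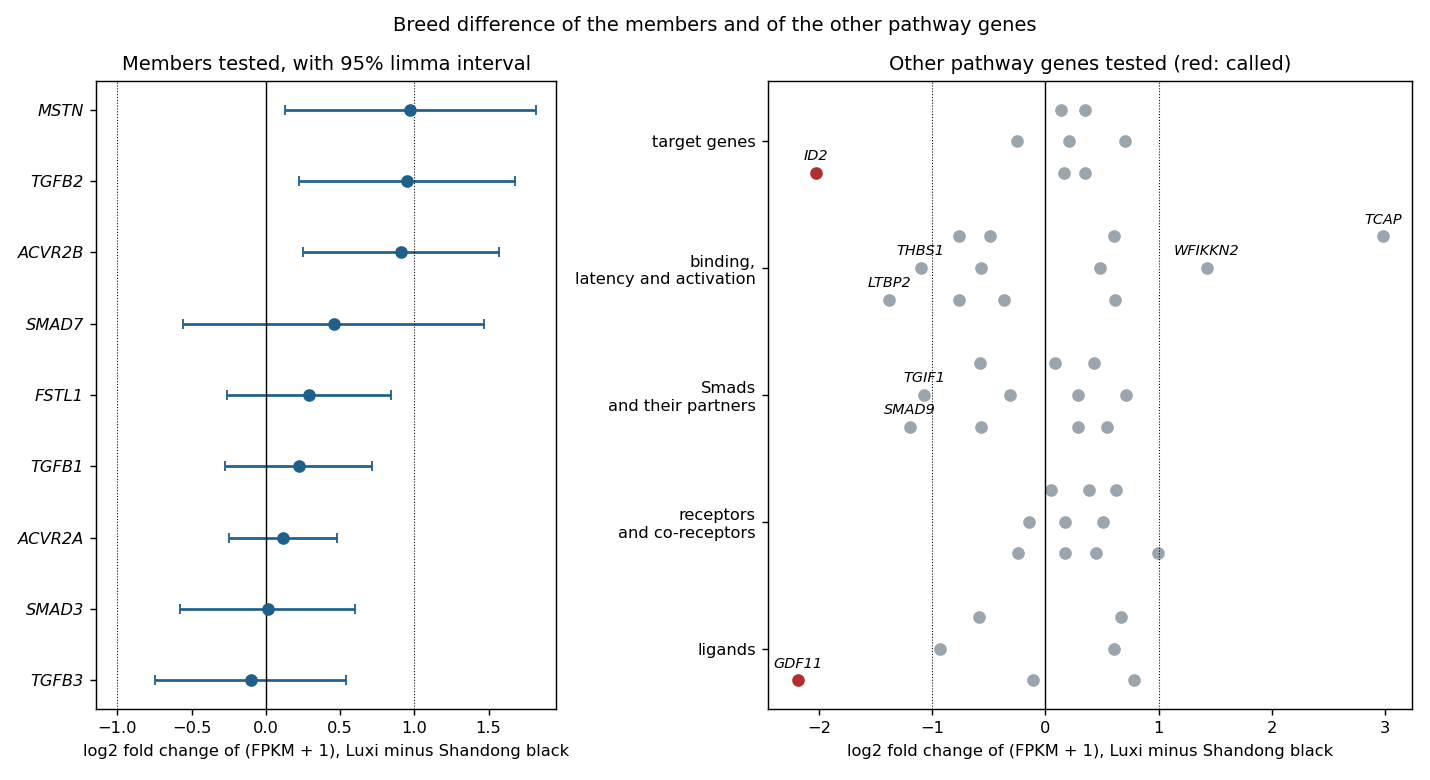
Log2 fold change of (FPKM + 1), Luxi minus Shandong black (horizontal axes), of the 9 tested genes of the set with the 95% limma interval (left) and of the 48 other pathway genes tested, by group (right), where dotted lines mark a log2 fold change of 1 in size. The intervals of MSTN, TGFB2 and ACVR2B lie above 0 before adjustment, and GDF11 at -2.19 and ID2 at -2.02 are the genes called (red), while the other named points have a log2 fold change over 1 in size but were not called.

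Markers of fibre types and of other cells differed between the breeds. Fast fibre markers (6 of 6 found, none at 0 in all animals) had a summed FPKM of 1437, 3639 and 3153 in B1 to B3 and of 3459, 20898 and 19903 in L1 to L3. For this sum L1 again lay within the Shandong black range, and L2 and L3 were far above it, as was seen for MSTN. Of the 6 markers, TNNT3 and TNNI2 were higher in all Luxi cattle, the others overlapped and none was called. TNNC2 was at 129 in L1, below the 220 to 863 of the Shandong black cattle. Slow fibre markers (6 of 6 found, none at 0 in all animals) had 31637, 25446 and 27529 in B1 to B3 and 11368, 3165 and 13062 in L1 to L3, so that the sum was lower in all Luxi cattle. Most of the slow fibre sum came from MYL2, and of the 6 markers TNNT1, TNNI1, TNNC1 and MYL2 were lower in all Luxi cattle, of which TNNI1 alone was called. MYH7 overlapped, and MYL3 went the other way, with 13.1, 46.4 and 26.6 in B1 to B3 and 1180, 63.5 and 244 in L1 to L3. Fibroblast and fibro-adipogenic markers (6 of 6) had a sum of 66.5 to 100 in Shandong black cattle and of 274 to 387 in Luxi cattle. COL1A1, COL1A2, COL3A1 and PDGFRA were higher in all Luxi cattle, with COL1A2 and COL3A1 called, whereas LUM overlapped and DPT was lower in all of them, at 6.81 to 9.30 against 10.2 to 12.3. Adipocyte markers (6 of 6) had a sum of 126 to 191 in Shandong black cattle and of 35.4 to 53.5 in Luxi cattle. ADIPOQ, PLIN1, FABP4 and CIDEC were called lower and LEP was lower in all Luxi cattle, but LPL was higher in all of them, at 23.3 to 37.2 against 16.7 to 17.5. The part of fibre type, fibroblasts, adipocytes and endothelial cells in the levels of the 10 genes was not tested.

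Mural markers (6 of 6) had a sum of 93.6 to 113 in Shandong black cattle and of 58.5 to 310 in Luxi cattle. RGS5 alone was at 131 in L1, against 8.22 in L2 and 13.5 in L3. Macrophage markers (6 of 6) had a sum of 16.0 to 23.9 in Shandong black cattle and of 5.64 to 18.6 in Luxi cattle. Of these, C1QA and CSF1R were lower in all Luxi cattle, the others overlapped and none was called. Satellite cell markers (3 of 4 found, PAX7 not found) had 2.75 to 3.40 in Shandong black cattle. They had 2.78 in L1, 6.33 in L2 and 6.75 in L3, with L2 and L3 again above the other animals. Of these markers, MYF5 and CDH15 overlapped and were not called. CALCR, too low to be tested, was higher in all Luxi cattle, with L1 at 0.864 above L2 at 0.592. Red blood cell markers (3 of 5 found, ALAS2 and HBM not found) were at 0.199 to 1.34 in all animals.

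**Figure D5:**
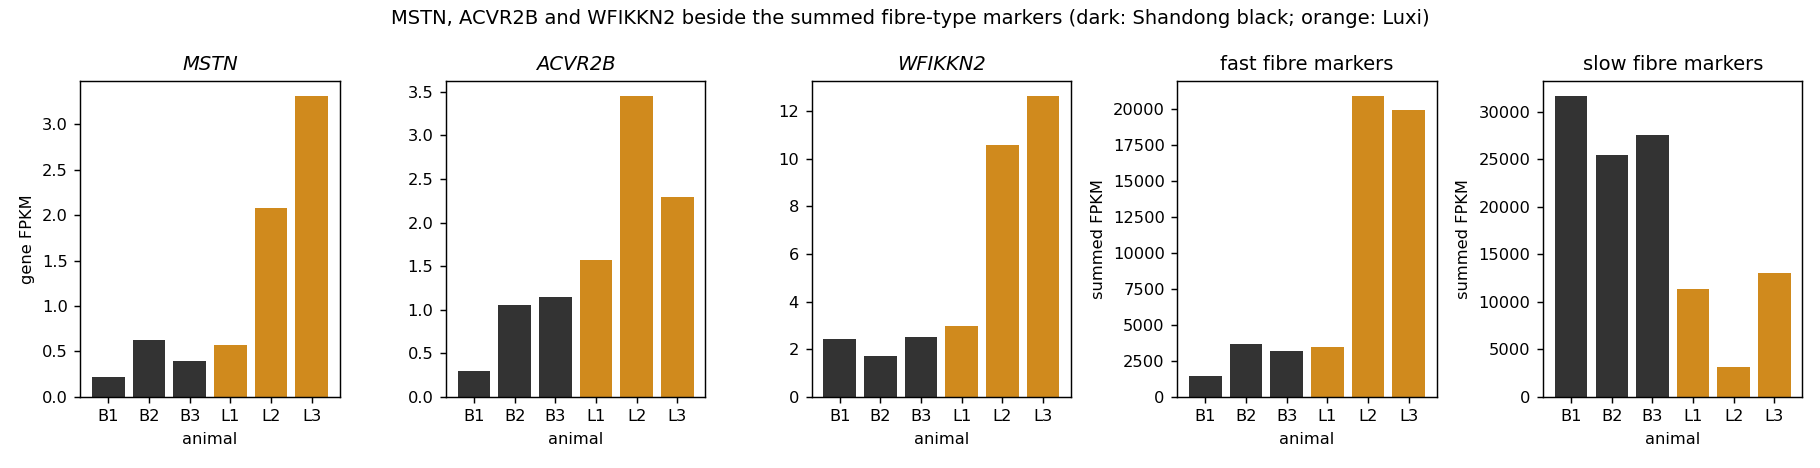
FPKM of MSTN, ACVR2B and WFIKKN2 and the summed FPKM of the fast and slow fibre markers (vertical axes, from 0) in the 6 animals, with Shandong black cattle in dark and Luxi cattle in orange. L2 and L3 have the tallest bars for MSTN, ACVR2B, WFIKKN2 and the fast fibre markers. The slow fibre sum is lower in all Luxi cattle than in all Shandong black cattle. The genes shown were picked, WFIKKN2 after its values were seen. Other genes of the set had other patterns: FST and FSTL1 were highest in L3 and L1, TGFB3 was highest in L1, and SMAD7 exceeded the Shandong black range in L2 alone. A link to fibre type was not tested.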

How the data were processed

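RNA-Seq libraries of the longissimus dorsi muscle, 1 per animal, were grouped by the breed given in the labels (3 against 3). Reads were cleaned by the authors with Fastp and mapped to ARS-UCD1.2 by HISAT. StringTie (1.3.3b per the file headers) then assembled each library with the NCBI annotation as guide, and the authors deposited the coverage, FPKM and TPM of each transcript. FPKM is relative to the aligned bases of a library. Read counts were not used here, so that precision is limited by the number of animals, and counting error is not given.

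Gene FPKM was the sum of reference transcripts and of those same-strand assembled ones that lay on its exons over 50% or more of their length. Other assembled transcripts, 21.6 to 29.8% of the FPKM of a library, were left out. A transcript not listed in an animal counted as 0. Genes whose mean FPKM reached 1 in either breed were tested with limma 3.58.1 in R 4.3.3 (lmFit, eBayes with trend, log2(FPKM + 1), no covariate) and Benjamini-Hochberg adjustment, since Cuffdiff, used by the authors, needs alignments. The procedure was tested on simulated data. Ratios were compared by exact permutation tests.

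The 10 genes, the pathway list and the marker lists were chosen with earlier results of these data known. Named were the 10 genes and, of the pathway list, each called gene and, in each group, the most abundant gene and the tested gene with the largest log2 fold change, besides the 3 genes most like MSTN. XIST, EIF2S3 and WFIKKN2 were added after their values were seen. CTGF stood for CCN2, and GDF5, GDF15, CFC1, WFIKKN1, LTBP4 and TLL1 were among the names not found. A name held by more than 1 gene identifier (468 names) was split by identifier, and the lists were searched by plain name. A gene not found may therefore be among the split names. The alternatives were a pseudocount of 0.1, no filter, a mean FPKM of at least 5, TPM, size factors, quantile normalization, no trend, a replicate block, reference transcripts only, and leaving out each animal. Coverage of the exon bases shared by all reference transcripts of a gene was chosen after seeing the data.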

Additional observations from a re-analysis of the deposited data

How the results depend on the processing

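The number of genes called, 251, was 63 with no filter, 134 with a mean FPKM of at least 5, 135 with a replicate block and 163 with reference transcripts only, and it ranged from 3 to 593 when 1 animal was left out: 10 without B1, 3 without B3, 593 without L1, 44 without L2 and 86 without L3. Of these 251, 151 were higher in Luxi cattle, against 115 of 265 with size factors, 124 of 288 with quantile normalization and 145 of 277 with TPM. None of the 10 genes was called in any alternative, except MSTN without L1 (range 0 to 1, log2 fold change 1.38). The 2 calls of the pathway list became 0 with no filter, and ranged from 0 to 4 when 1 animal was left out (0 without B1, B3 or L2, 1 without L3, and 4 without L1, with ACVRL1 and WFIKKN2 added).

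Signs turned for small differences only. The log2 fold change of ACVR2A was -0.010 with size factors and -0.031 with quantile normalization. That of SMAD3 was -0.109 with TPM, -0.128 with size factors and -0.166 with quantile normalization. When 1 animal was left out it ranged from -0.172 to 0.242 for SMAD3, from -0.312 to 0.118 for TGFB3, from -0.0016 to 0.349 for ENG and from -0.123 to 0.484 for CDKN1A. The cause was not tested.

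Same-numbered animals are different animals, and their deviations from the breed means correlated with r of 0.084, 0.087 and 0.075, so the numbers were not taken as pairs, although each animal correlated best with its own number. With the replicate block, none of the 10 genes was called, and the pathway list kept 2 calls. The shared exon bases changed no call. Fits without an animal of 3 leave 2 in that breed, and low coverage, as for MSTN in B1, limits the values of single exons and transcripts.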

Other observations

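Of the 11 pathway genes found but too low to enter a test, ACVR1C, TDGF1 and GDF10 did not overlap between the breeds. The share among all genes below the filter was not computed, and among all genes tested it was 29.1%. ACVR1C, the type I receptor known as ALK7, had an FPKM of 0.360 to 0.402 in Shandong black cattle and was at 0 in all Luxi cattle. TDGF1, a co-receptor of nodal, had 0.291 to 0.729 in Shandong black cattle and was likewise at 0 in all Luxi cattle. GDF10, a ligand, went the other way: it was at 0 in all Shandong black cattle and had 0.191, 0.0205 and 0.153 in L1 to L3. A 0 can mean that no transcript was listed. All of these genes were below the filter in each breed and were named after their values were seen.

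Assembled transcripts that overlap the 10 genes but were left out of their sums had low levels. On the strand opposite to ACVR2A they were found in all 6 animals, with a summed FPKM of 1.83, 2.03 and 1.95 in B1 to B3 and of 0.917, 1.10 and 3.13 in L1 to L3, so that the breeds overlapped. For ACVR2B, same-strand transcripts with under 50% of their bases on its exons had 1.10, 1.13 and 0.528 in B1 to B3, none in L1 and L2, and 1.12 in L3. Same-strand transcripts over TGFB3 reached 2.16 in B2, above the 0.775 of the gene itself in that animal. Over MSTN the only such transcript lay on the opposite strand in L1, with an FPKM of 0.195. The file headers give a strand setting of StringTie, while the kit named in the labels is not stated to keep the strand, and the strand of these transcripts was not tested.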
